A study of Apis mellifera with 6 samples.

Results

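Of the 11169 gene entries measured by RNA-seq in honeybee (Apis mellifera) ovaries, 37 carried a symbol of the DNA replication and cell cycle machinery. The entries were chosen by symbol alone, as those beginning with Mcm, Orc, Cdk, Cdc or Rfc followed by a digit or a capital letter (in any case of the prefix), with Cyc followed by a capital letter, or with DNApol, Rnr or PCNA. By their known roles, 8 belonged to origin licensing and the replicative helicase, 2 to the clamp loader, 7 to the DNA polymerases, 2 to ribonucleotide reductase, 5 to the cyclins and kinases of the S and M phases and 2 to anaphase and mitotic exit. Another 7 were cyclins and kinases outside these steps, known mainly from transcription apart from CycG. A last 4 were grouped by symbol as sharing only the prefix, among them cdc2rk, which is Cdk10 in flies. These 11 were kept and described apart. The sliding clamp PCNA was read under its fly name, mus209, among the further genes of the pathway.

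Ovaries of 3 kinds were compared, all from females and each represented by 2 pools of dissected ovaries. Queen ovaries came from young, actively laying queens that headed colonies, and were given no ovary score. Queen-less worker ovaries came from workers moved with brood frames into nucleus boxes without a queen and dissected once worker eggs could be found there, and had an ovary score of 3, that is, active ovaries. Queen-right worker ovaries came from workers of a hive with a laying queen and had an ovary score of 0, that is, inactive ovaries. The number of bees in a pool is not given, and nothing beyond the labels shows that the pools of a kind came from separate hives, so the p-values below measure the spread between these pools.

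Copying of the genome is prepared by the origin recognition complex and Cdc6, which load the Mcm helicase onto DNA, and is carried out by the polymerases with the sliding clamp and its loader. Cyclin-dependent kinases order these steps, cyclin D and Cdk4 before S phase, cyclin E and Cdk2 at its start and the B-type cyclins at mitosis, and the anaphase-promoting complex ends mitosis. In an active ovary with nurse cells, as in bees and flies, germline cells divide to form cysts, the nurse cells copy their genomes repeatedly without dividing, follicle cells multiply around the growing egg chamber, and the oocyte is loaded with maternal transcripts that serve the rapid divisions of the early embryo.

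The values are the authors' RPKM, reads scaled by gene model length and by library size, which allow levels to be compared between genes per length. Read counts were not used here and the absolute depth is unknown, but the steps between low RPKM values placed the shallowest library at 94.2% of the deepest. Pools of a kind correlated over the tested entries with r between 0.976 and 0.988 on the log2 scale. Germline markers were present in all 6 libraries, with summed levels of 3397 to 3511 RPKM over 10 entries in queens, 2749 to 3075 in queen-less workers and 1242 to 1326 in queen-right workers. The difference between these sums rested on mael, a gene of the germline piRNA pathway, at 2309 and 2274 RPKM in queens and 1467 and 1950 in queen-less workers, against 97.5 and 56.5 in queen-right workers. Without it the other 9 entries summed to 1202 and 1124 RPKM in queens and 1281 and 1125 in queen-less workers, against 1144 and 1269.9 in queen-right workers, and overlapped. Within these 9, vas, BicD and the longer of 2 aub entries were higher and orb was lower in active ovaries. The even sums therefore do not show that each gene was level. Muscle markers summed over 6 entries to 21.7 to 36.7 RPKM in queens and 153 to 182 in queen-less workers, against 2597 to 3249 in queen-right workers, and fat body markers over 6 entries to 12.9 to 35.6 RPKM in queens and 39.3 to 49.8 in queen-less workers, against 1238 to 1579 in queen-right workers. All 6 muscle and all 6 fat body markers were lower in queen-less workers than in workers with a queen by the test used here, and of the 10 germline entries 4 were higher and 2 lower (40% and 20%, against 30.6% and 37% of all entries). Among the higher was vas, with 190.2 and 138 RPKM in queens and 193 and 201 RPKM in queen-less workers, against 18.6 and 16.7 RPKM in queen-right workers. Among the lower was orb, with 548 and 529 RPKM in queens and 623 and 523 RPKM in queen-less workers, against 963 and 1058 RPKM in queen-right workers, and egl, nanos, spn-E and vls were not called. The gene aub had 2 entries, called in opposite directions. The longer, of 4357 bases, had 320 and 316 RPKM in queens and 341 and 279 in queen-less workers, against 39.0 and 39.2 in queen-right workers (log2 difference 3.14). The shorter, of 364 bases, was the other lower entry (log2 difference -1.09, limma adjusted p = 0.0419). It had low levels, at 0.51 to 4.98 RPKM over all libraries. Follicle cell markers summed over 5 entries to 66.6 to 66.8 RPKM in queens and 75.1 to 81.5 in queen-less workers. In queen-right workers they summed to 81.6 to 90.2 RPKM. These 5 entries covered 4 genes, since Dl had 2 entries, and the sums hid opposite directions. In queen-less against queen-right workers tj was higher (log2 difference 1.30, limma adjusted p = 0.000374) and slbo lower (-1.05, adjusted p = 0.000456). Both Dl entries and N were not called there. In queens against queen-right workers 1 entry was higher and 3 were lower (20% and 60%, against 31.3% and 40.6% of all entries). No marker of these 4 lists was at 0 in any library. The part of these tissues in the differences below was not tested, and in whole ovaries fewer cells of a type and less RNA per cell cannot be told apart.

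Most replication and cell cycle genes were higher in active ovaries. In queen-less against queen-right worker ovaries 31 of the 37 members differed by limma with Benjamini-Hochberg adjustment over all 8778 entries tested, 27 of them higher and 4 lower in queen-less workers. Among all tested entries 67.6% differed in this comparison, with 30.6% higher and 37% lower, and of the members 83.8% differed, with 73% higher and 10.8% lower. The median log2 difference of the members was 0.67, against -0.13 over all tested entries. These differences are on the log2(RPKM + 1) scale after the authors' scaling, on which changes of genes with low RPKM appear smaller than they are. Across the 3 other scalings the median of the members lay between 0.48 and 0.82 and that of all entries between -0.32 and 0.01. The RPKM of both queen-less pools lay above both queen-right pools in 27 members (73% of them, against 31.6% of all tested entries) and below both in 7 members (18.9%, against 53.1% of all). Most entries of the table thus did not overlap between both kinds of worker, and a lack of overlap alone does not mark a gene. Overlaps and printed RPKM values are before the authors' factors. These factors were 0.898 and 0.856 in the queen-right pools and 0.994 to 1.01 in the others. Beside the scaled log2 differences, unscaled RPKM therefore stands higher in queen-right workers, which adds to the share lying below them. An exact permutation test (two-sided) over 2 against 2 pools can give no p under 0.333, and limma therefore borrows the spread of all entries.

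**Figure D1:**
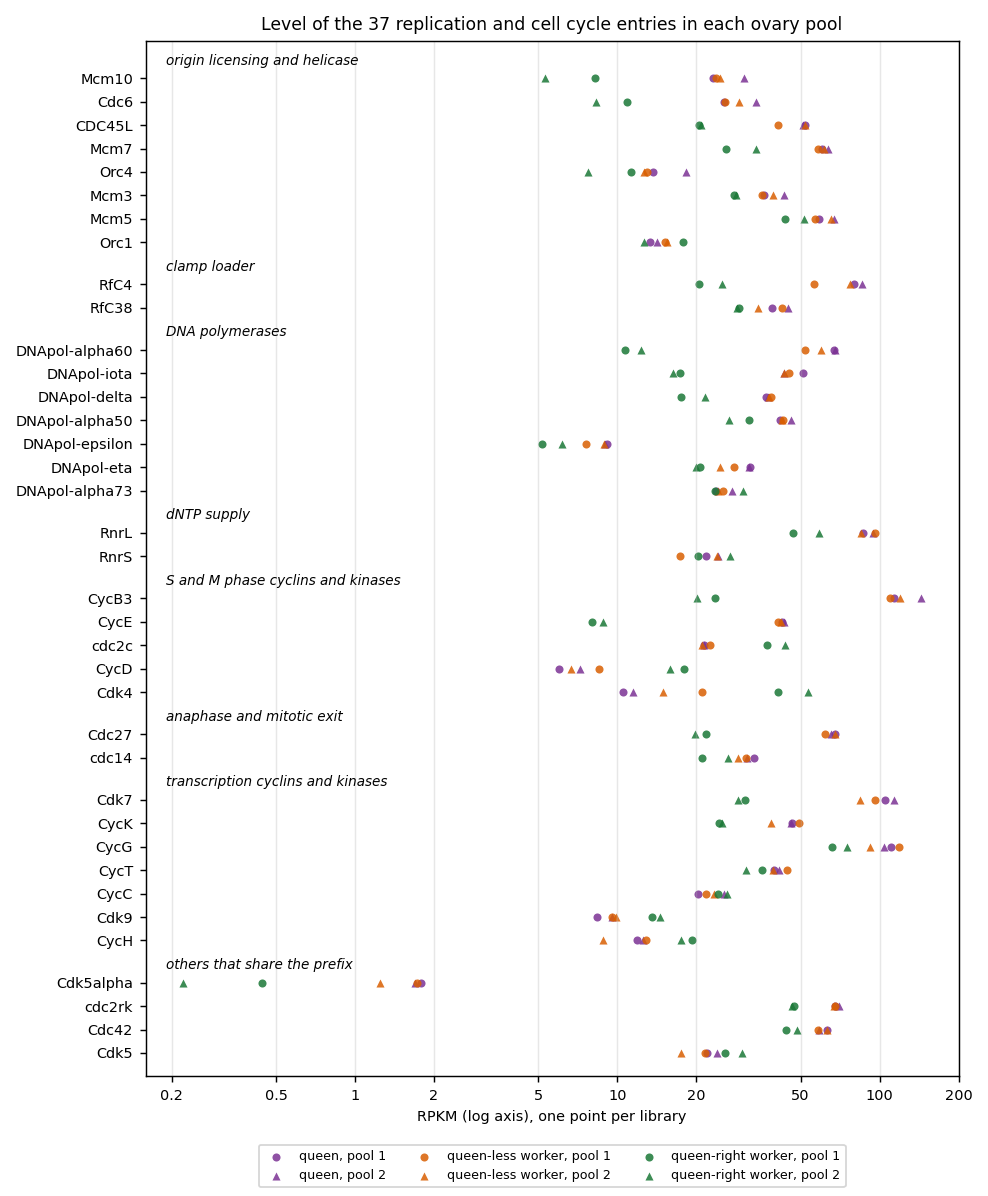
RPKM of each of the 37 entries (rows, grouped by role) in each of the 6 libraries, on a log axis, with 1 point per ovary pool (circles pool 1, triangles pool 2). Queen and queen-less worker points lie mostly together and to the right of the queen-right worker points, as for CycB3 at 109.7 to 144 RPKM against 20.2 and 23.6 RPKM, while cdc2c, CycD and Cdk4 lie in the other order.

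All 37 members passed the filter of at least 1 RPKM in at least 2 libraries. Cdk5alpha passed only through the active ovaries, since it was under 1 RPKM in both queen-right pools, and so had to differ. Without it 30 of 36 members differed in queen-less against queen-right workers, 26 higher and 4 lower, with a median log2 difference of 0.64, and 29 of 36 in queens against queen-right workers, 26 higher and 3 lower, with a median of 0.78. The median member stood at 39.7 RPKM in queens and 38.2 in queen-less workers, against 23.6 in queen-right workers, whereas the median tested entry stood at 15.2 in queens and 16.2 in queen-less workers, against 19.3 in queen-right workers. In inactive ovaries the genes were still measured, with 36 of the 37 entries at 1 RPKM or more in every library. The lowest member in all 3 kinds was Cdk5alpha. The highest was CycB3 in both kinds of active ovary and CycG in queen-right workers.

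At the origins, the factors that act around helicase loading and activation differed most. Mcm10, which helps to start the loaded helicase, had 23.2 and 30.3 RPKM in queen ovaries and 23.8 and 24.5 RPKM in queen-less worker ovaries, against 8.22 and 5.29 RPKM in queen-right worker ovaries. All 4 active pools lay above both inactive pools, and the log2 difference of queen-less against queen-right workers was 1.92 (95% interval 1.38 to 2.45, limma adjusted p = 0.000237), and the log2 differences and intervals that follow are of the same comparison unless queens are named. Cdc6, the loader of the Mcm ring, had 25.5 and 33.8 RPKM in queens and 25.8 and 28.99 RPKM in queen-less workers, against 10.8 and 8.31 RPKM in queen-right workers, a log2 difference of 1.63 between both kinds of worker (1.16 to 2.09, adjusted p = 0.000257). CDC45L, named for the helicase partner Cdc45, stood at 52.0 and 50.9 RPKM in queens and 40.9 and 52.1 RPKM in queen-less workers, against 20.5 and 20.8 RPKM in queen-right workers, a log2 difference of 1.32 (0.99 to 1.64, adjusted p = 0.00013). None of these 3 genes overlapped between active and inactive ovaries. Of all tested entries 31.6% also lay above both queen-right pools in both queen-less pools.

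The 3 subunits of the Mcm ring that were measured did not rise by the same amount in these pools. Mcm7 had 60.5 and 63.8 RPKM in queens and 58.1 and 61.6 RPKM in queen-less workers, against 26.0 and 33.8 RPKM in queen-right workers (log2 difference 1.18, 0.88 to 1.48, adjusted p = 0.000141). Mcm3 had 36.3 and 43.1 RPKM in queens and 35.8 and 39.4 RPKM in queen-less workers, against 27.8 and 28.4 RPKM in queen-right workers (log2 difference 0.60, 0.30 to 0.89, adjusted p = 0.00404). Mcm5, the highest of the origin genes, had 59.0 and 67.2 RPKM in queens and 56.5 and 65.1 RPKM in queen-less workers, against 43.4 and 51.7 RPKM in queen-right workers (log2 difference 0.54, 0.24 to 0.84, adjusted p = 0.00666). All 3 were above both queen-right pools in every active pool, and the steps of Mcm3 and Mcm5 were smaller than that of Mcm7. The ratio of Mcm7 to Mcm5 in RPKM was 1.03 and 0.947 in queen-less workers, against 0.599 and 0.654 in queen-right workers, with no overlap, and the ratio of Mcm7 to Mcm3 was 1.62 and 1.56, against 0.935 and 1.19. The step of Mcm5 was no longer called without queen-less worker replicate 2 (0.43, limma adjusted p = 0.0528), and its gene model shares 566 of its 3348 bases with that of LOC551927.

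For the origin recognition complex, which marks the sites where copying starts, the differences were small or near the threshold. Orc1, its largest subunit and an ATPase, had 13.4 and 14.1 RPKM in queens and 15.2 and 15.5 RPKM in queen-less workers, against 17.9 and 12.6 RPKM in queen-right workers, whose pools enclosed all 4 active pools. Its log2 difference of queen-less against queen-right workers was 0.22 (-0.24 to 0.67, limma adjusted p = 0.351), and it was -0.05 without queen-right worker replicate 2 and 0.49 (adjusted p = 0.043) without queen-right worker replicate 1. Orc4, another subunit, had 13.7 and 18.3 RPKM in queens and 12.96 and 12.6 RPKM in queen-less workers, against 11.3 and 7.76 RPKM in queen-right workers. Its groups did not overlap, but its log2 difference of 0.60 lay at the threshold (0.07 to 1.13, limma adjusted p = 0.0477) and was not called in 10 of 16 other settings, among them 5 that each left out 1 library (both queen pools, both queen-less pools and queen-right worker replicate 2), with adjusted p of 0.05 to 0.24 there. Between queens and queen-right workers it was 0.90 (0.37 to 1.43, adjusted p = 0.0084), and without queen replicate 2 it was 0.70 (adjusted p = 0.0612).

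The clamp loader opens the sliding clamp and closes it around the primed template. RfC4, one of its small subunits, had 80.0 and 85.8 RPKM in queens and 56.1 and 77.3 RPKM in queen-less workers, against 20.4 and 25.1 RPKM in queen-right workers. The lowest active pool was well above the highest inactive one, with a log2 difference of 1.69 between both kinds of worker (1.30 to 2.08, limma adjusted p = 9.51e-05). RfC38, another subunit, had 38.8 and 44.6 RPKM in queens and 42.3 and 34.3 RPKM in queen-less workers, against 29.2 and 28.6 RPKM in queen-right workers, and rose by a log2 difference of 0.58 (0.27 to 0.90, adjusted p = 0.00627). The 2 subunits were thus at similar levels in inactive ovaries, where the ratio of RfC4 to RfC38 was 0.701 and 0.879, and apart in active ones, where it was 2.06 and 1.93 in queens and 1.32 and 2.25 in queen-less workers. The RfC38 model shares 357 bases with SdhC, which had lower RPKM in active ovaries (45.8 and 44.4 in queens and 48.3 and 45.8 in queen-less workers, against 85.5 and 99.6 in queen-right workers).

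Among the DNA polymerases 6 of 7 entries were higher in queen-less workers, set against queen-right ones, where 30.6% of all tested entries were. DNApol-alpha60, the large subunit of the primase that lays down the first RNA bases of each new strand, had 67.3 and 67.6 RPKM in queens and 52.1 and 59.9 RPKM in queen-less workers, against 10.7 and 12.3 RPKM in queen-right workers. It had the highest level of the 7 polymerase entries in both kinds of active ovary and the lowest but DNApol-epsilon in queen-right workers, with a log2 difference of 2.38 of queen-less against queen-right workers (2.10 to 2.66, limma adjusted p = 6.36e-06). Its primase partner DNApol-alpha50, the small catalytic subunit, had 41.8 and 45.8 RPKM in queens and 43.0 and 42.6 RPKM in queen-less workers, against 31.8 and 26.6 RPKM in queen-right workers (log2 difference 0.73, 0.42 to 1.05, adjusted p = 0.00196). DNApol-alpha73, the accessory subunit of polymerase alpha, had 23.8 and 27.3 RPKM in queens and 25.3 and 24.1 RPKM in queen-less workers, against 23.6 and 30.2 RPKM in queen-right workers, and overlapped in all 3 kinds (log2 difference 0.09, -0.24 to 0.42, adjusted p = 0.609, with a negative sign in RPKM without the authors' scaling).

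These 3 proteins are known as parts of 1 complex, polymerase alpha with primase, yet their transcripts stood in different proportions in active and inactive ovaries. The ratio of DNApol-alpha60 to DNApol-alpha50 was 1.61 and 1.48 in queens and 1.21 and 1.41 in queen-less workers, against 0.337 and 0.463 in queen-right workers. No pool of active ovaries came near the inactive ones in this ratio. The ratio of DNApol-alpha60 to DNApol-alpha73 was 2.83 and 2.47 in queens and 2.06 and 2.48 in queen-less workers, against 0.455 and 0.407 in queen-right workers.

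Of the replicative polymerases, DNApol-delta, which copies the lagging strand, had 36.8 and 37.7 RPKM in queens and 38.6 and 37.8 RPKM in queen-less workers, against 17.5 and 21.6 RPKM in queen-right workers (log2 difference 1.13, 0.85 to 1.41, limma adjusted p = 0.000132). DNApol-epsilon, which copies the leading strand, was lower throughout, with 9.15 and 8.97 RPKM in queens and 7.62 and 8.90 RPKM in queen-less workers, against 5.16 and 6.13 RPKM in queen-right workers (log2 difference 0.67, 0.25 to 1.09, adjusted p = 0.0123). Both separated active from inactive ovaries without overlap, although DNApol-epsilon was not called without queen-less worker replicate 2 (0.56, limma adjusted p = 0.0744) or without queen-right worker replicate 1 (0.60, adjusted p = 0.0562). Such a separation above both queen-right pools was found in 31.6% of all tested entries for the queen-less pools and 32.3% for the queen pools. The DNApol-delta model shares 1079 of 6900 bases with LOC724676, at 16.6 to 23.9 RPKM over all libraries. The polymerases that copy past damaged bases also rose. DNApol-iota had 51.2 and 43.1 RPKM in queens and 45.2 and 43.1 RPKM in queen-less workers, against 17.3 and 16.3 RPKM in queen-right workers (log2 difference 1.54, 1.24 to 1.84, limma adjusted p = 4.33e-05), and DNApol-eta had 32.1 and 31.6 RPKM in queens and 27.8 and 24.7 RPKM in queen-less workers, against 20.7 and 19.9 RPKM in queen-right workers (log2 difference 0.54, 0.26 to 0.83, adjusted p = 0.0052).

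Ribonucleotide reductase makes the deoxyribonucleotides from a large and a small subunit. RnrL, the large subunit, had 86.4 and 94.2 RPKM in queens and 95.9 and 84.7 RPKM in queen-less workers, against 46.8 and 58.8 RPKM in queen-right workers (log2 difference 0.96, 0.67 to 1.25, limma adjusted p = 0.000329). RnrS, the small subunit, had 21.7 and 24.3 RPKM in queens and 17.4 and 24.0 RPKM in queen-less workers, against 20.4 and 26.8 RPKM in queen-right workers (log2 difference 0.00, -0.44 to 0.45, adjusted p = 0.988). The large subunit thus separated active from inactive ovaries and the small one overlapped, and their ratio was 3.98 and 3.88 in queens and 5.52 and 3.53 in queen-less workers, against 2.29 and 2.19 in queen-right workers. The RnrS model spans 17218 bases and overlaps 3 other entries, and without a stated strand of counting their reads cannot be told apart.

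**Figure D2:**
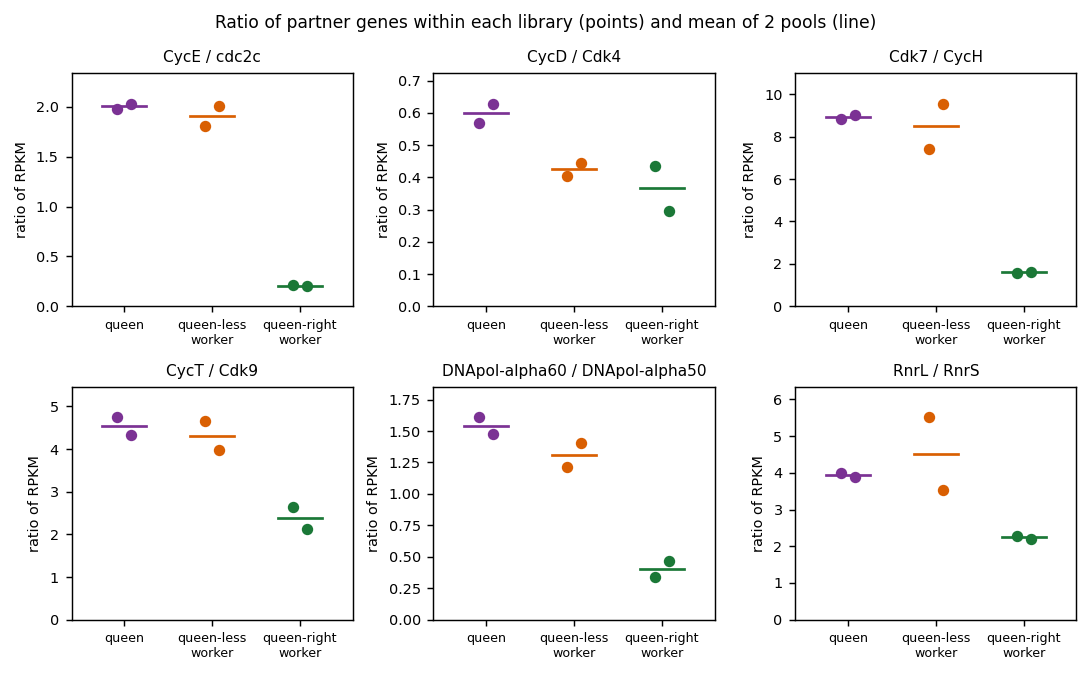
Ratio of the RPKM of partner genes within each library (points) with the mean of 2 pools (line), for 6 pairs, on linear axes that start at 0. The ratio of CycE to cdc2c averaged 2.01 in queens and 1.91 in queen-less workers, against 0.208 in queen-right workers, while that of CycD to Cdk4 overlapped between both kinds of worker and was higher in queens, at 0.569 and 0.629.

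The cyclins and kinases of the cell cycle proper moved in both directions. CycB3, a B-type cyclin that acts in mitosis and meiosis in flies, had 113 and 144 RPKM in queens and 109.7 and 119.9 RPKM in queen-less workers, against 23.6 and 20.2 RPKM in queen-right workers. It had the highest level and the largest rise of this group, a log2 difference of 2.53 of queen-less against queen-right workers (2.18 to 2.89, limma adjusted p = 1.06e-05), which in mean RPKM was 114.8 ± 7.19 in queen-less workers and 21.9 ± 2.39 in queen-right workers (SD, n = 2 pools each). CycE, the cyclin of S phase entry, had 42.5 and 43.4 RPKM in queens and 40.9 and 42.2 RPKM in queen-less workers, against 7.99 and 8.82 RPKM in queen-right workers (log2 difference 2.37, 2.10 to 2.64, adjusted p = 5.87e-06). The 4 active pools of CycE lay close together and far above both inactive pools.

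The kinase partner of CycE fell. In flies cdc2c is the symbol of Cdk2, and its entry had 21.5 and 21.3 RPKM in queens and 22.6 and 21.0 RPKM in queen-less workers, against 37.4 and 43.5 RPKM in queen-right workers (log2 difference -0.67, -0.94 to -0.39, limma adjusted p = 0.00168). The ratio of CycE to cdc2c was 1.98 and 2.03 in queens and 1.81 and 2.01 in queen-less workers, against 0.214 and 0.203 in queen-right workers. The kinase transcript was therefore in excess of its cyclin in both inactive pools, and the cyclin in excess in all 4 active pools.

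The pair that acts earlier in the cycle was lower on both sides. CycD, cyclin D, had 5.99 and 7.20 RPKM in queens and 8.52 and 6.63 RPKM in queen-less workers, against 17.9 and 15.8 RPKM in queen-right workers (log2 difference -0.87, -1.33 to -0.42, limma adjusted p = 0.00517). Cdk4, its kinase, had 10.5 and 11.5 RPKM in queens and 21.1 and 14.9 RPKM in queen-less workers, against 41.04 and 53.4 RPKM in queen-right workers, the largest fall of any member (log2 difference -1.16, -1.59 to -0.72, adjusted p = 0.00104). Neither gene overlapped between active and inactive ovaries. Of all tested entries, 53.1% also lay below both queen-right pools in both queen-less pools, and 54.6% did so in both queen pools. Their ratio, CycD to Cdk4, was 0.569 and 0.629 in queens and 0.404 and 0.445 in queen-less workers, against 0.437 and 0.297 in queen-right workers, so that queens lay above queen-right workers without overlap and queen-less workers overlapped with them. Between cyclins the order turned, with a CycE to CycD ratio of 7.10 and 6.02 in queens and 4.80 and 6.36 in queen-less workers, against 0.446 and 0.557 in queen-right workers. Muscle and fat body markers fell between the same pools as CycD, Cdk4 and cdc2c, as given above, and their part in these falls was not tested.

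Of the genes that end mitosis, Cdc27, a core subunit of the anaphase-promoting complex, had 67.7 and 65.0 RPKM in queens and 61.8 and 67.4 RPKM in queen-less workers, against 21.8 and 19.8 RPKM in queen-right workers (log2 difference 1.78, 1.51 to 2.05, limma adjusted p = 1.53e-05). The phosphatase gene cdc14, known from mitotic exit in yeast, had 33.1 and 31.3 RPKM in queens and 31.1 and 28.8 RPKM in queen-less workers, against 21.0 and 26.5 RPKM in queen-right workers (log2 difference 0.52, 0.22 to 0.83, adjusted p = 0.00837). In 31.6% of all tested entries both queen-less pools lay above both queen-right pools, and in 32.3% both queen pools did. Active and inactive pools did not overlap in either gene, but the smaller rise of cdc14 was not called in RPKM without the authors' scaling (0.33, limma adjusted p = 0.0671) or without queen-less worker replicate 1 (0.48, adjusted p = 0.0519).

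The cyclins and kinases outside these steps, most of them known from transcription, were divided as well. Cdk7, which activates other cell cycle kinases and phosphorylates RNA polymerase as part of TFIIH, had 104.7 and 114 RPKM in queens and 96.0 and 83.9 RPKM in queen-less workers, against 30.6 and 28.8 RPKM in queen-right workers (log2 difference 1.75, 1.49 to 2.02, limma adjusted p = 1.42e-05). CycH, its cyclin, had 11.9 and 12.6 RPKM in queens and 12.9 and 8.78 RPKM in queen-less workers, against 19.2 and 17.6 RPKM in queen-right workers. In all 4 active pools Cdk7 lay above and CycH below both inactive pools. For the queen-less pools, 31.6% of all tested entries lay above both inactive pools and 53.1% below both. The ratio of Cdk7 to CycH was 8.81 and 9.02 in queens and 7.43 and 9.55 in queen-less workers, against 1.60 and 1.64 in queen-right workers. The fall of CycH itself was small and near the threshold (log2 difference -0.54, -0.996 to -0.08, limma adjusted p = 0.0408), was not called in 9 of 16 other settings, among them 5 that each left out 1 library (both queen pools, queen-less worker replicate 2 and both queen-right pools), with adjusted p of 0.0604 to 0.23 there, and was -0.24 (adjusted p = 0.308) once the dependence on gene length was taken out. Its model shares 1652 of 1875 bases with LOC726759, at 33.4 to 49.2 RPKM over the 6 libraries, so the reads of CycH are uncertain.

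CycG, whose fly homologue takes part in growth control and meiosis, was the most abundant of these 7 on average, with 110.2 and 104 RPKM in queens and 119 and 92.2 RPKM in queen-less workers, against 66.0 and 75.3 RPKM in queen-right workers (log2 difference 0.75, 0.45 to 1.06, limma adjusted p = 0.00157). CycK, the cyclin of kinases that act in transcript elongation, also separated both kinds of worker, with 46.2 and 46 RPKM in queens and 49.5 and 38.6 RPKM in queen-less workers, against 24.3 and 25.2 RPKM in queen-right workers (log2 difference 0.99, 0.68 to 1.29, adjusted p = 0.000406). CycT and Cdk9 together form the elongation factor P-TEFb. CycT rose, with 39.6 and 41.2 RPKM in queens and 44.4 and 39.3 RPKM in queen-less workers, against 35.7 and 30.9 RPKM in queen-right workers (log2 difference 0.52, 0.21 to 0.82, limma adjusted p = 0.00872, and 0.0608 without queen-less worker replicate 1). Cdk9 had 8.33 and 9.54 RPKM in queens and 9.56 and 9.87 RPKM in queen-less workers, against 13.5 and 14.5 RPKM in queen-right workers, and did not pass the test (log2 difference -0.30, -0.67 to 0.07, adjusted p = 0.134), although it did in RPKM without the authors' scaling (-0.49, adjusted p = 0.0283). CycC, the cyclin of the Mediator kinase, ranged between 20.4 and 26.3 RPKM over all 6 libraries (log2 difference 0.04, -0.30 to 0.37, adjusted p = 0.83).

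Of the 4 genes grouped by symbol as sharing only the prefix, cdc2rk and Cdc42 rose and Cdk5 did not pass the test. In this comparison 30.6% of all tested entries were higher. By its fly name Cdk10, cdc2rk would belong with the transcription kinases instead. Cdk5alpha, the activator of Cdk5 known from neurons, was the lowest member, with 1.79 and 1.69 RPKM in queens and 1.72 and 1.25 RPKM in queen-less workers, against 0.44 and 0.22 RPKM in queen-right workers. Its levels were low and did not overlap between active and inactive ovaries, and they are given with no test, since the gene passed the filter only where it was high. The entry cdc2rk, Cdk10 in flies, had 67.9 and 70.3 RPKM in queens and 67.8 and 66.9 RPKM in queen-less workers, against 47.0 and 46.2 RPKM in queen-right workers (log2 difference 0.71, 0.49 to 0.94, adjusted p = 0.000429). Its model shares 133 bases with CSP6, which had 217 to 260 RPKM in active ovaries, against 28.2 and 42.6 RPKM in queen-right workers, and the part of those reads was not tested. Cdc42, a small GTPase of cell polarity, had 63.1 and 58.9 RPKM in queens and 58.4 and 62.8 RPKM in queen-less workers, against 43.9 and 48.5 RPKM in queen-right workers (log2 difference 0.58, 0.34 to 0.82, adjusted p = 0.00181). Cdk5 itself did not pass the test, with 22.0 and 23.9 RPKM in queens and 21.6 and 17.5 RPKM in queen-less workers, against 25.7 and 29.9 RPKM in queen-right workers (log2 difference -0.30, -0.63 to 0.03, adjusted p = 0.0982, and 0.0204 in RPKM without the authors' scaling). Its model shares all of its 2122 bases with LOC408324, an entry at 0 RPKM in all 6 libraries.

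**Figure D3:**
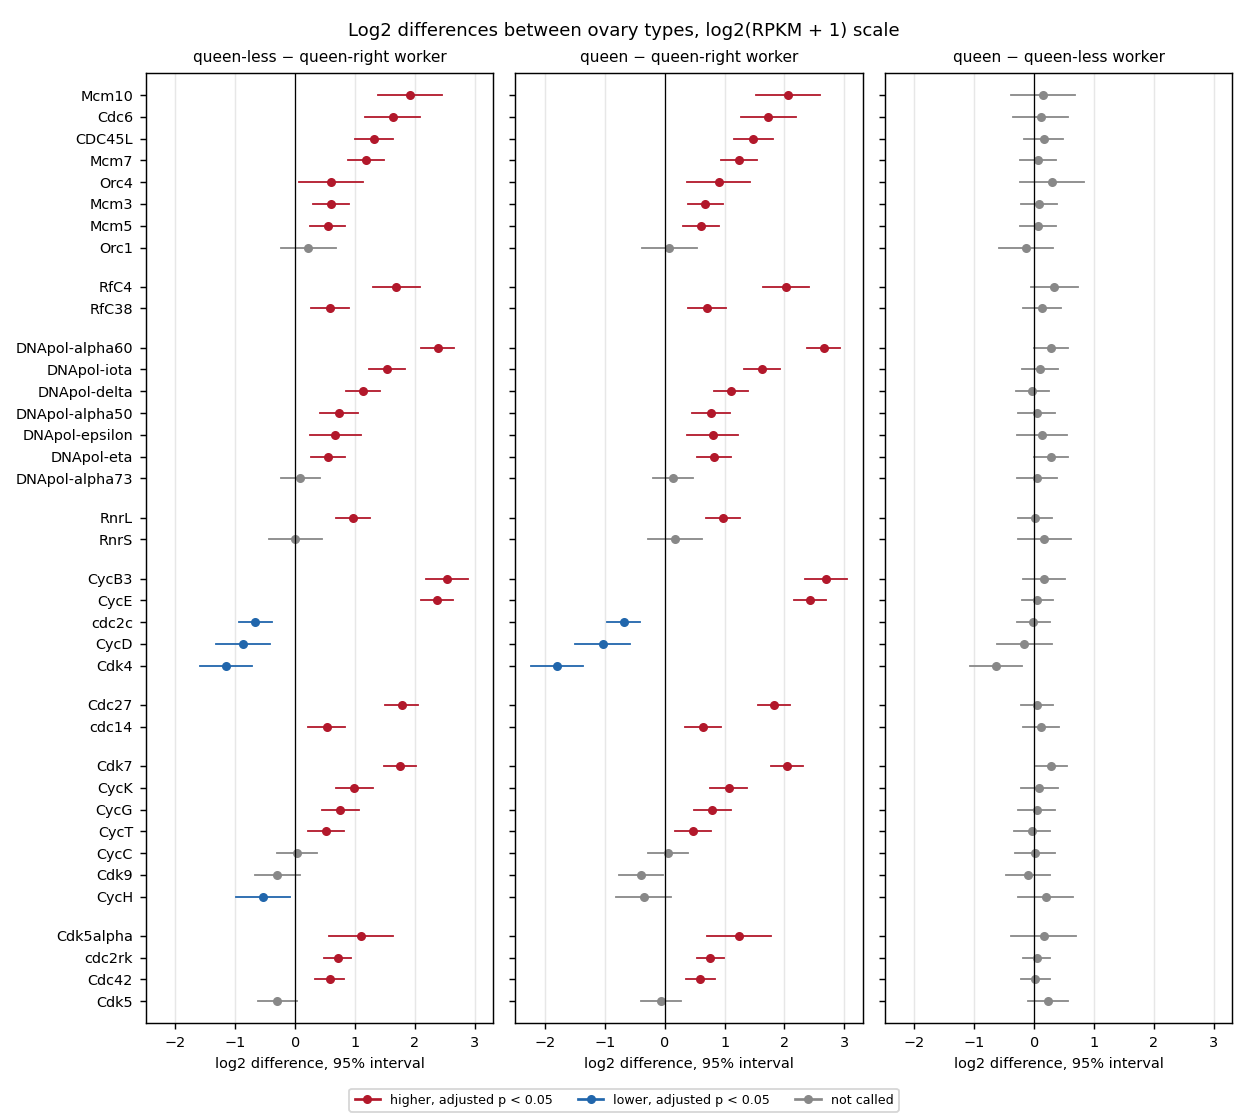
Log2 difference with its 95% interval for each of the 37 entries in the 3 comparisons, on the log2(RPKM + 1) scale, coloured by the call of limma at an adjusted p under 0.05. The 2 panels set against queen-right workers share those libraries and range from -1.16 to 2.53 and from -1.80 to 2.69, whereas the panel of queens against queen-less workers stays between -0.64 and 0.33 with no call, and Cdk5alpha entered only through its level in active ovaries.

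Against the same queen-right libraries, queen ovaries differed in 30 of the 37 members, 27 higher and 3 lower, by limma with Benjamini-Hochberg adjustment. Among all tested entries 71.8% differed, 31.3% higher and 40.6% lower in queens. The median log2 difference was 0.79 over the members, against -0.19 over all entries. Both queen pools lay above both queen-right pools in 27 members (73%, against 32.3% of all tested entries) and below both in 6 (16.2%, against 54.6% of all). The largest rises were those of CycB3 (log2 difference 2.69, 2.34 to 3.05), DNApol-alpha60 (log2 difference 2.66, 2.38 to 2.94) and CycE (log2 difference 2.42, 2.16 to 2.69), and the members that fell were Cdk4 (log2 difference -1.80, -2.23 to -1.36), CycD (log2 difference -1.04, -1.49 to -0.58) and cdc2c (log2 difference -0.68, -0.96 to -0.41). CycH stood at -0.35 (-0.81 to 0.11, limma adjusted p = 0.142) and Cdk9 at -0.40 (-0.77 to -0.03, adjusted p = 0.0523), and neither was called. In RPKM without the authors' scaling both were called lower, CycH at -0.55 (limma adjusted p = 0.034) and Cdk9 at -0.60 (adjusted p = 0.0109), and Cdk9 was also called with a filter on every library (adjusted p = 0.0466) and with a pseudocount of 0.1 (adjusted p = 0.0454). The rise of CycT was 0.48 (adjusted p = 0.0113) and was not called in RPKM without the authors' scaling (0.28, adjusted p = 0.0742) or without queen replicate 2 (0.45, adjusted p = 0.0681). Both comparisons share the queen-right libraries, so that they are not independent of each other.

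No member was called between queen and queen-less worker ovaries by limma with Benjamini-Hochberg adjustment, where 1.48% of all tested entries were called, 0.0797% higher and 1.4% lower in queens. Both queen pools lay above both queen-less pools in 10 members (27%, against 20% of all tested entries) and below both in 4 (10.8%, against 34.6% of all). At an unadjusted limma p under 0.05 there were 2 members, Cdk4 and Cdk7, against 1425 of all 8778 tested entries. The share was thus smaller among the members than among all entries. Cdk4 had 10.5 and 11.5 RPKM in queens, against 21.1 and 14.9 RPKM in queen-less workers (log2 difference -0.64, -1.07 to -0.20, adjusted p = 0.174), with no overlap. Cdk7 had 104.7 and 114 RPKM in queens, against 96.0 and 83.9 RPKM in queen-less workers, also with no overlap (log2 difference 0.29, 0.02 to 0.55, adjusted p = 0.274). The median absolute log2 difference was 0.10 over the members, against 0.19 over all entries. The median absolute difference between the 2 pools of a kind was 0.10 over the members in queens, 0.15 in queen-less workers and 0.19 in queen-right workers. These are differences between single pools, whereas those between kinds are between means of 2 pools, which vary less. The 2 measures are therefore not directly comparable. A miss of the threshold does not show that queens and laying workers were alike in these genes. The intervals reach down to -1.07 for Cdk4 and up to 0.83 for Orc4 and 0.73 for RfC4. Of the muscle markers 5 of 6 were lower in queens than in queen-less workers.

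The further genes of the pathway, named without those prefixes, were mostly higher in active ovaries too. Of 72 symbols in a list of cell cycle genes, 25 were found, and 20 of these rose and 0 fell in queen-less workers, set against queen-right ones, by limma with Benjamini-Hochberg adjustment, with 5 not called at the same threshold, where 30.6% of all tested entries were higher and 37% lower. Their median log2 difference was 1.60, against -0.13 over all entries. Between queens and queen-right workers 20 were higher and 1 lower, against 31.3% higher and 40.6% lower of all entries. The lower one was Det, the fly survivin homologue (log2 difference -0.48, -0.79 to -0.18, limma adjusted p = 0.011).

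The regulators of licensing stood high. The gene dup, the fly Cdt1 that loads the Mcm ring with Cdc6, had 155 and 158 RPKM in queens and 140.3 and 147 RPKM in queen-less workers, against 41.7 and 36.9 RPKM in queen-right workers (log2 difference 2.04, 1.78 to 2.30, limma adjusted p = 8.21e-06). Its inhibitor geminin had 190.4 and 184 RPKM in queens and 168 and 169.8 RPKM in queen-less workers, against 61.0 and 60.0 RPKM in queen-right workers (log2 difference 1.66, 1.44 to 1.88, adjusted p = 9.16e-06). Loader and inhibitor rose together, and the ratio of dup to geminin was 0.835 and 0.868 in queen-less workers, against 0.683 and 0.615 in queen-right workers.

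The transcriptional regulators of S phase genes in this list rose as well. Rbf, the retinoblastoma homologue, was higher by a log2 difference of 1.63 (1.33 to 1.93, limma adjusted p = 3.22e-05), Dp, the partner of the E2F factors, by 1.40 (1.12 to 1.68, adjusted p = 4.59e-05) and the repressive E2f2 by 1.01 (0.49 to 1.52, adjusted p = 0.00467) in queen-less workers, against queen-right ones. The largest steps of this list were those of Incenp of the chromosomal passenger complex, at a log2 difference of 2.54 (2.05 to 3.03), and of the condensin subunit CAP-D2, at 2.54 (1.95 to 3.13), and the mitotic kinase polo stood at 2.08 (1.78 to 2.38). The activators of the anaphase-promoting complex, fzy in mitosis and cort in fly female meiosis, were higher by log2 differences of 2.00 (1.77 to 2.23) and 2.35 (1.95 to 2.74). The cort entry spans 211539 bases, against a median of 3548 over all entries. Its overlap with other entries was not checked, so the reads of cort are uncertain. The checkpoint kinase grp, the fly Chk1, had 155.5 and 152 RPKM in queens and 150.2 and 148 RPKM in queen-less workers, against 38.5 and 43.3 RPKM in queen-right workers (log2 difference 2.03, 1.82 to 2.25, limma adjusted p = 5.16e-06). Among the genes of this list not called between both kinds of worker were RpA-70, the large subunit of the single-strand binding protein, at 58.4 and 59.1 RPKM in queen-less workers and 66.3 and 67.2 RPKM in queen-right workers (log2 difference 0.01, -0.21 to 0.23, adjusted p = 0.922), and Psf2 of the GINS complex that travels with the helicase (log2 difference -0.31, -0.71 to 0.09, adjusted p = 0.144). The other 3 were Bub3, Caf1-105 and Det.

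**Figure D4:**
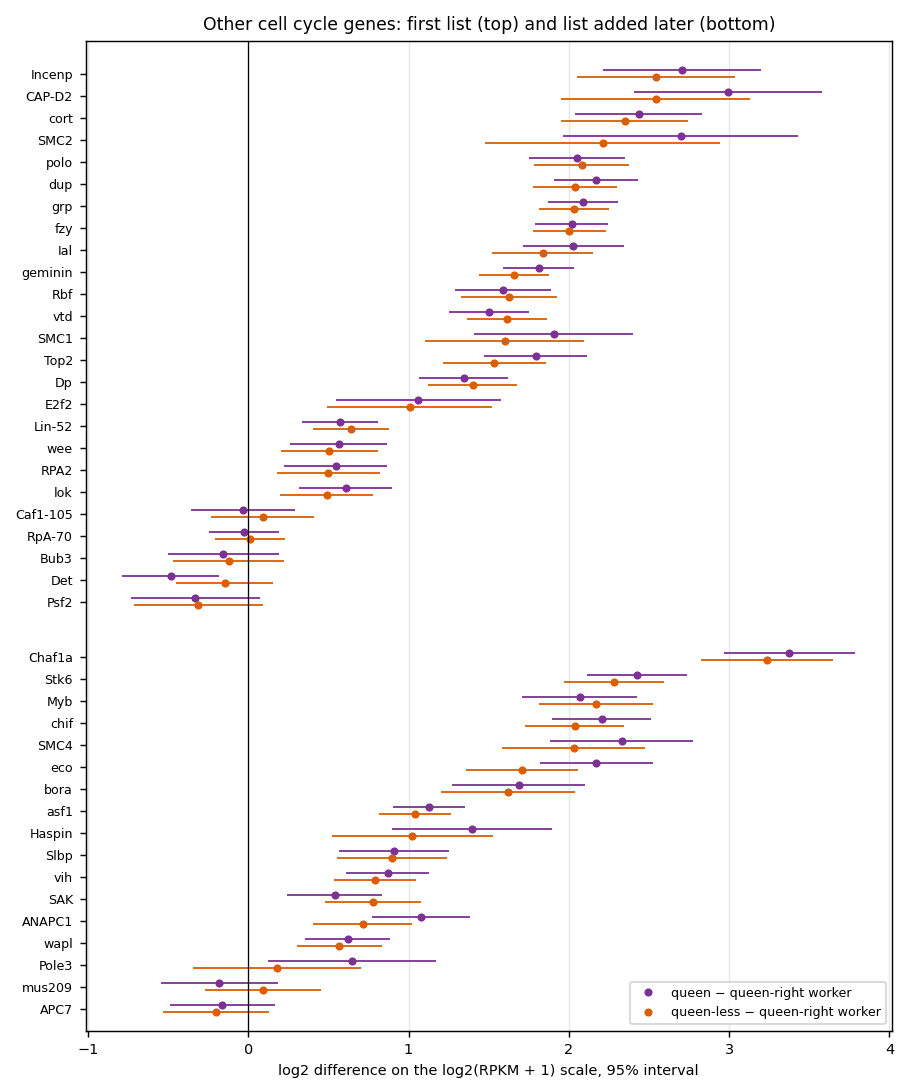
Log2 difference with its 95% interval on the log2(RPKM + 1) scale for 25 further cell cycle genes (top) and 17 chosen after the symbols of the table were read (bottom), in queen ovaries (purple) and queen-less worker ovaries (orange) against queen-right worker ovaries. Most lie to the right of 0, led by Chaf1a at 3.38 and 3.24, and mus209, the fly PCNA, lies at -0.18 and 0.09.

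Another list of 17 such genes was chosen after the symbols in the table had been read, and is no independent support. Of these, 14 rose and 0 fell in queen-less workers by limma at the same threshold (30.6% and 37% of all entries), with APC7, Pole3 and mus209 not called and a median log2 difference of 1.02, and in queens 15 rose and 0 fell (31.3% and 40.6% of all entries), with Pole3 among the 15 (log2 difference 0.65, 0.12 to 1.17, adjusted p = 0.0316). Chaf1a, a subunit of the chromatin assembly factor that places histones on newly copied DNA, had 114 and 106 RPKM in queens and 89.8 and 111 RPKM in queen-less workers, against 12.99 and 9.70 RPKM in queen-right workers (log2 difference 3.24, 2.83 to 3.65, limma adjusted p = 8.06e-06). The entry chif, whose fly product activates the Cdc7 kinase at origins and in follicle cell gene amplification, had 135 and 140.2 RPKM in queens and 117 and 128 RPKM in queen-less workers, against 36.9 and 30.4 RPKM in queen-right workers (log2 difference 2.04, 1.73 to 2.35, adjusted p = 1.47e-05). Both genes separated active from inactive ovaries without overlap. Above both queen-right pools lay 31.6% of all tested entries in the queen-less pools and 32.3% in the queen pools. The sliding clamp gene mus209 did not pass the test, with 16.4 and 15.5 RPKM in queens and 18.7 and 20.4 RPKM in queen-less workers, against 18.2 and 24.2 RPKM in queen-right workers. Its log2 difference was 0.09 of queen-less against queen-right workers (-0.27 to 0.46, limma adjusted p = 0.615) and -0.18 between queens and queen-right workers (-0.54 to 0.18, adjusted p = 0.324), in the same pools in which the loader subunit RfC4 rose by 1.69 and 2.03.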

How the data were processed

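Total RNA of 6 ovary pools was sequenced by the authors, who deposited RPKM per library for each gene entry, and a normalized signal that equals RPKM + 1 multiplied by 1 factor per library (0.856 to 1.01). The aligner, counter, strand setting and genome build are not given in the sources used here. The authors' own group means, fold changes and adjusted p-values were not used, nor were 12 further columns of values per sample.

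Groups were taken from the sample labels. Log2(RPKM + 1), scaled by the authors' factors, was fitted with limma (version 3.58.1, R 4.3.3) with a variance trend, all 6 libraries and 1 mean per group, for every entry that reached 1 RPKM in 2 or more libraries, with Benjamini-Hochberg adjustment and a threshold of 0.05. The fit was tested on simulated data. All 37 members matched a gene ID of the RefSeq table of Amel_HAv3.1, used for names only.

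The members and lists were chosen with earlier results of these data known. Described with the value in each library by rule were, in each role group, the called members with the largest rise and fall between both kinds of worker and the member with the highest mean RPKM, and every Mcm gene. The other members and all list genes were named after their values were seen. Grp and NOS, which matched a list only without regard to case, were left out. A search of promoters for motifs was not run, since no sequences were used here. Alternatives covered scaling, gene length, filter, pseudocount, libraries in the fit, replicate block, left-out libraries and threshold.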

Additional observations from a re-analysis of the deposited data

How the results depend on the processing

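Over the settings that kept both pools of each kind compared, 28 to 31 members were called in queen-less against queen-right workers. Of all entries 53% to 69.5% were called there. In queens against queen-right workers 29 to 31 members were called, where 59.9% to 73.8% of all entries were. In queens against queen-less workers it was 0 members, where 0.358% to 2.56% of all entries were called. Leaving out 1 library at a time gave a median log2 difference of the members of 0.65 to 0.71 in queen-less against queen-right workers. That of all entries was -0.16 to -0.10 there. In queens against queen-right workers the medians were 0.73 to 0.81 and -0.22 to -0.16. With the pool number as a replicate block the counts of members called in the 3 comparisons were 30, 30 and 0 (65%, 70.3% and 0.809% of all entries). Orc4 was lost there between both kinds of worker (limma adjusted p = 0.074). Samples with the same number showed only weak correlations of their deviations (0.0614, -0.0862 and -0.129). Whether they shared more than a number was not tested. A block with the numbers crossed in queen-right workers, added after seeing the data, gave 31, 30 and 0 (69.5%, 73.8% and 2.56% of all entries). At a threshold of 0.01 the counts were 28, 29 and 0 (53%, 59.9% and 0.467% of all entries). In RPKM without the authors' scaling the members split into 25 higher and 6 lower between both kinds of worker (25.1% and 44.2% of all entries), and into 26 higher and 5 lower, in place of 3 lower, in queens against queen-right workers (26.2% and 47.4% of all entries).

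The members whose log2 difference turned its sign in any of these settings were not called as reported. In queen-less against queen-right workers these were, without the authors' scaling, CycC (-0.15), DNApol-alpha73 (-0.11) and RnrS (-0.19), with the length trend removed DNApol-alpha73 (-0.0122), and with a pseudocount of 0.1 RnrS (-0.0044). With 1 library left out they ranged from -0.0227 to 0.0972 for CycC (lowest without queen-less worker replicate 2), from -0.0516 to 0.22 for DNApol-alpha73 (without queen-right worker replicate 1), from -0.0519 to 0.49 for Orc1 (without queen-right worker replicate 2) and from -0.23 to 0.24 for RnrS (without queen-less worker replicate 2). In queens against queen-right workers they were, without the authors' scaling, CycC (-0.14), DNApol-alpha73 (-0.0640), Orc1 (-0.12) and RnrS (-0.0270), with median of ratios scaling Cdk5 (0.10), and with the length trend removed Cdk5 (0.24) and CycH (0.0033). With 1 library left out they ranged from -0.14 to 0.0050 for Cdk5 (highest without queen-right worker replicate 2), from -0.0974 to 0.21 for CycC (lowest without queen replicate 2), from -0.0023 to 0.27 for DNApol-alpha73 (without queen-right worker replicate 1) and from -0.19 to 0.35 for Orc1 (without queen-right worker replicate 2). The cause of these turns was not tested. The calls of Orc4 and CycH between both kinds of worker depended on the setting, while Mcm3, RfC38, Cdc42 and DNApol-eta, with differences of similar size, were called in all 16 other settings. The counts without Cdk5alpha and the germline sums without mael were added after seeing the data.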
